A study of Mus musculus with 8 samples.

Results

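Some cytosines of the mouse liver were methylated on a little under or over every other read, in every animal. These CGs, called members here, were the autosomal CGs with at least 20 reads in all 8 mice and a methylation level from 35% to 65% in each mouse. Of 82065 CGs with enough reads, 1011 were members (1.23%), and 4103 others had a mean level in the same window but left it in at least 1 mouse. Since the levels of all 8 mice chose the members, their levels in whole reads are given as a description, and tests are kept to the difference between the chromosomes of an F1 mouse, which the choice did not use, and to cytosines outside CG. The choice does limit how far B6 and DBA chromosomes can differ, since the parents of both strains had to lie in the window.

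The mice were C57BL/6J (B6) and DBA/2J (DBA) parents and their F1 offspring, called BXD where the mother was B6 and DXB where the mother was DBA, with 1 female and 1 male of each kind, 16 weeks old and fasted for 16 hours. Liver DNA was cut with MspI at CCGG, fragments were chosen by size and treated with bisulfite, which leaves methylated cytosines as cytosine and turns the others into a base read as thymine, and the level is the percent of reads in which cytosine remains. Whole liver holds hepatocytes together with endothelial, stellate and immune cells. Of the promoters of 8 hepatocyte marker genes 1, that of Fgb, had CGs with enough reads, 2 of them with a mean of 30.5%, and of 6 leukocyte marker genes none did, so the mixture of cells could not be checked from these CGs.

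An intermediate level can be read in several arrangements. In genomic imprinting the copy from a given parent carries methylation and the other does not, in every cell, so that the whole tissue reads close to the middle, and the mark is laid down in the germ line at imprinting control regions and kept by ZFP57, a zinc finger protein that binds methylated TGCCGC. A mixture of methylated and unmethylated cells gives the same number, as does an allele of a strain that is methylated in a heterozygote. In an inbred parent both copies share their sequence, apart from the B6 male library described next, which held variants of both strains. In F1 mice a total over reads cannot tell these arrangements apart, whereas reads sorted to a parental chromosome in both crosses can.

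The libraries held 36885116 to 105692226 calls at autosomal CGs, where a read is counted at each CG it covers. In the B6 male library 83.9% of the cytosine calls in sorted reads came from reads with B6 variants. This was 99.7% in the B6 female, and the B6 male library stands apart from the other parents in this respect. Without it 83952 CGs had enough reads and 1175 met the rule (1.40%). All 1011 members are among these 1175 by construction, since leaving out a mouse can only add CGs. Leaving out the DBA male library raised these counts the most, to 230060 CGs with enough reads and 3758 that met the rule (1.63%). Reads per member and mouse ran from 20 to 710. At 20 reads a level of 50% has an exact 95% binomial interval from 27.2% to 72.8%, and at 100 reads from 39.8% to 60.2%, and these intervals cover counting error only.

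The sequences of the regions the results turn on are shown first, in the letters of NCBIM37 (mm9) on the plus strand. Capitals mark the member CGs. The first pair lies at Zrsr1, an imprinted gene within the Commd1 gene, at chr11:22873120-22873180 and chr11:22873914-22873968, the third lies upstream of the imprinted Zdbf2 at chr1:63312870-63312935, the next pair are the regions with the most members, in Clcf1 at chr19:4216408-4216487 and in a coding exon of Tnxb at chr17:34809499-34809694, and the last is the P4ha3 intron at chr7:107437614-107437678, where levels of both strains' chromosomes could be read.
Zrsr1, upstream: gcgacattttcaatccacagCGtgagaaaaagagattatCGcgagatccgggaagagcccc
Zrsr1, inside the gene: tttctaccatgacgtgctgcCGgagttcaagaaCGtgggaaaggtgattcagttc
Zdbf2, upstream: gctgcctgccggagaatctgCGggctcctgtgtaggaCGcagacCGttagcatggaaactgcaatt
Clcf1: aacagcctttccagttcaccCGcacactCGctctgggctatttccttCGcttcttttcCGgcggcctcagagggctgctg
Tnxb: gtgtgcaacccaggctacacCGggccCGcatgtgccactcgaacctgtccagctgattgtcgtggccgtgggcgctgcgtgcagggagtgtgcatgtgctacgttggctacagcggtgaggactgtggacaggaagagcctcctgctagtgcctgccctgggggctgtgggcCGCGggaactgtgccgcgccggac
P4ha3: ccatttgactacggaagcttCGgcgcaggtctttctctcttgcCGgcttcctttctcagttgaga

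Most members stood alone. Joined over gaps of up to 500 bases they formed 915 regions, of which 832 held 1 member, 72 held 2, 9 held 3 and 2 held 4, and the longest spanned 283 bases. They lay on all 19 autosomes, where their share of the CGs tested ran from 0.865% on chromosome 10 to 1.59% on chromosome 19, and the median distance between regions was 1054 kb. Of the members, 570 lay inside an annotated gene, in 486 genes, and 441 lay outside genes.

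The mean level of a member over mice ran from 39.0% to 61.6% with a median of 50.6%, and 210 members stayed between 40% and 60% in all mice. The SD over the 8 mice had a median of 5.95 percentage points over the members, and the SD from the reads alone a median of 5.29 points. The window of the rule caps the SD over mice. At the 4103 CGs with a mean in the window that left it, these medians were 9.49 and 5.59 points. By mouse, the median member level ran from 49.3% in the DXB male to 52.3% in the B6 female, with lower quartiles of 44.1% to 46.3% and upper quartiles of 54.9% to 57.7%. At the bounds of the window, 383 members came within 2 points of 35% or 65% in some mouse, and 466 CGs were left out by at most 2 points. A CG near Gm5530 at chr1:81440705 reached exactly 65% and was kept, while a CG at Gnao1 (chr8:96436704) fell to 34.98% in its lowest mouse and was not.

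The CGs that missed the window in a single mouse numbered 1031, slightly more than the members. The DBA male was the mouse outside at 242 of these and the DBA female at 195, against 63 at the BXD male. The DBA male and female libraries also had the fewest reads at members (medians of 53 and 64) and the BXD male library the most (221), and the part of coverage in these counts was not tested.

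Members were less often at promoters than the CGs tested as a whole. Within 1 kb of a start site lay 16.7% of the members and 44.0% of all CGs tested, in introns 34.6% and 21.0%, and between genes 40.2% and 25.8%. Coding exons held 6.23% of the members and 7.28% of the CGs tested. The share of tested CGs that were members was therefore 0.468% at promoters, 2.03% in introns and 1.92% between genes.

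CG density went the same way. In the 202 bases around a member there were 4 CGs at the median, against 8 around all CGs tested, 17 around CGs below 20% in every mouse and 4 around CGs above 80% in every mouse. Members made up 2.36% of the CGs with 1 to 4 CGs in that window, 1.74% of those with 5 to 9, 0.511% of those with 10 to 14 and 0.0413% of those with 20 or more. CG-rich sequence, as in the CpG islands that cover many promoters, held few members. In this respect the members resembled the CGs above 80%, of which 7.73% lay at promoters, and the 4103 CGs that left the window, of which 15.3% did.

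**Figure D1:**
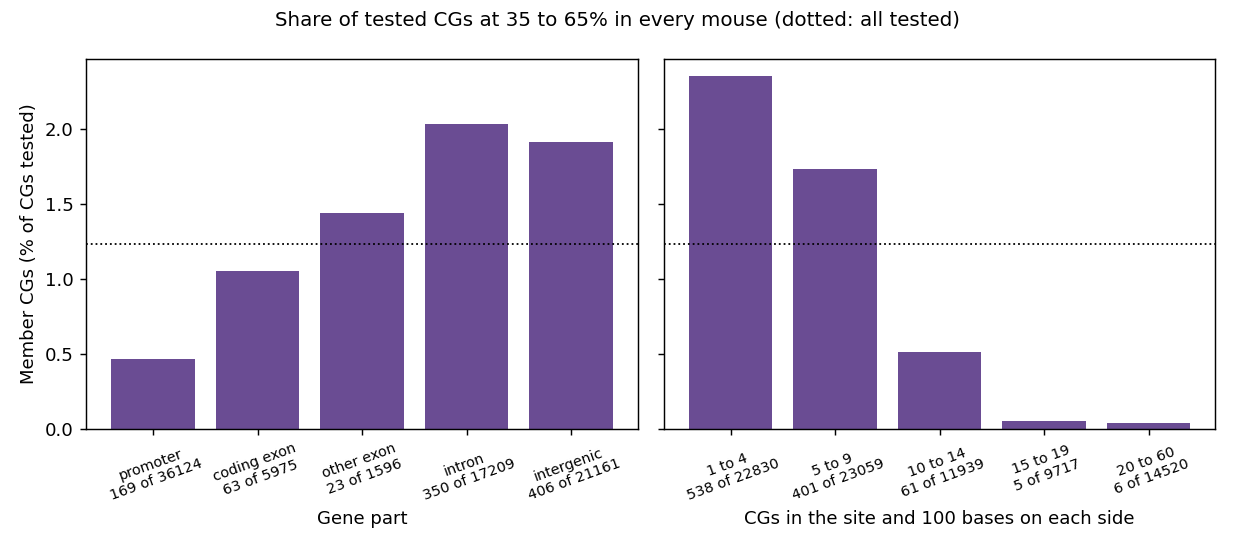
The share of tested CGs that were members (y axis, percent) is plotted by gene part (left) and by the number of CGs in the 202 bases around the site (right), with the counts of members and of CGs tested under each bar and the share of all CGs tested (1.23%) as a dotted line. Bars for introns (2.03%) and intergenic CGs (1.92%) stand above the line and the bar for promoters (0.468%) below it, and the share falls from 2.36% to 0.0413% with CG density.

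Neighbouring CGs shared the intermediate level most often at the shortest distances. Among tested CGs 2 to 10 bases from a member, 54.3% had a mean level between 35% and 65% and 19.7% were members themselves (254 pairs). At 11 to 25 bases these shares were 45.9% and 16.8%, at 26 to 50 bases 37.3% and 9.37%, at 51 to 100 bases 22.2% and 0% (27 pairs), and at 101 to 200 bases 27.2% and 6.20%. Around all CGs tested, between 1.59% and 3.80% of neighbours had such a mean at every distance up to 500 bases, in CGs that are mostly denser. The median difference between a member and its neighbour rose from 12.5 points at 2 to 10 bases to 35.5 points at 201 to 500 bases. Neighbours within a read length share molecules and reads, and the pairs are therefore not independent.

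**Figure D2:**
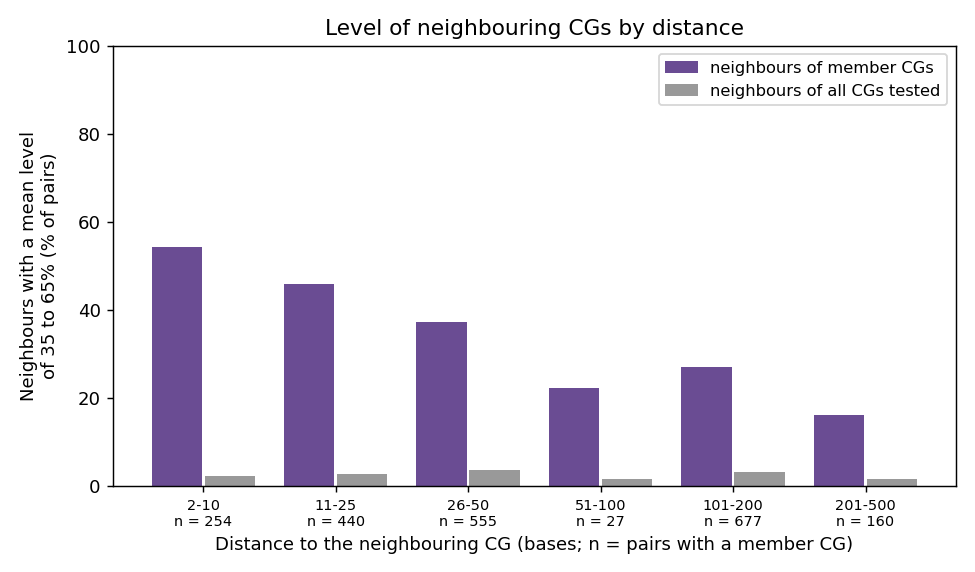
Bars give the percent of neighbouring CGs with a mean level of 35 to 65% (y axis) by the distance in bases to the neighbour (x axis), for neighbours of members and of all CGs tested. The bars for members are highest at 2 to 10 bases (54.3%) and lowest at 201 to 500 bases (16.3%), with 27.2% at 101 to 200 bases above the 22.2% of the 27 pairs at 51 to 100 bases, and those for all CGs tested stay at or below 3.80%.

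Flanking CGs that were not members could be read on both sides of 202 regions. On both sides the mean lay between 20% and 80% at 102 regions, 49 had a flank above 80% next to a middle flank, 24 had a flank below 20% next to a middle flank, and 20 were above 80% on both sides. A step from below 20% to above 80% across the region was found at 2. The opposite strand of the same CG had enough reads at 8 members, and its mean lay in the window at 7 of them, with a median difference of 5.58 points between strands. Of these 8, 2 are the strands of the same CG and count each other. Over all CGs tested, 45 of 600 opposite strands lay in the window and the median difference was 3.61 points.

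Members were found at 13 imprinted genes, and their share of the tested CGs was higher near listed imprinted genes than elsewhere. A list of 81 imprinted genes and genes of imprinted clusters was used, 35 of them with methylation described on the maternal chromosome, 9 on the paternal chromosome and 37 as other genes of such clusters. Of the 81, 74 were found in the annotation and 52 had a CG tested within 10 kb, so the counts do not cover the others. Of 333 CGs tested within 10 kb of a listed gene, 21 were members (6.31%), in 12 regions, whereas 1.21% of the CGs tested elsewhere were members. Listed genes held 2.08% of all members, against 0.406% of all CGs tested. This share was 3.33% with a window of 40% to 60% (7 of 210). Without the DBA male it was 1.01% (38 of 3758), against 0.448% of the 230060 CGs then tested, and 3.69% of the 1031 tested near listed genes met the rule against 1.62% elsewhere. The CGs of a region are not independent of each other. The other 990 members have none of the 74 genes within 10 kb.

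By class, 16 of 165 CGs near genes of the maternal list were members and 5 of 45 near genes of the paternal list, and none of 126 near the other genes of imprinted clusters. The genes reached were Airn, Blcap, Cdh15, Commd1, Gnas, Grb10, Igf2r, Nespas, Nnat, Snrpn and Zrsr1 from the maternal list and H19 and Zdbf2 from the paternal list. These 21 members differed in setting from the 990 elsewhere, with 61.9% at promoters against 15.8% and a median of 10 CGs in 202 bases against 4. The 21 lie in 12 regions, and all CGs tested had 44.0% at promoters and a median of 8 CGs. These values were not taken for the 333 CGs tested near listed genes, so the contrast may not be particular to the members.

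From the maternal list, Snrpn encodes a splicing protein, and its start site is the imprinting centre of the Prader-Willi cluster. Its 2 members, at chr7:67149938-67149966 within 1 kb of the start site, read 42.7% in the lowest mouse, 45.3% at the median and 50.6% in the highest (SD 2.78 points, n = 8). Among the named regions only Prdm16 had a narrower spread, and the 3 tested CGs of the gene all had means in the window.

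Zrsr1, a gene copied by retrotransposition into an intron of Commd1 and expressed from the paternal copy, had 4 members in a pair of regions. In the region 75 bases from its start site, chr11:22873140-22873160, the lowest mouse was the B6 female at 40.7%, the median 55.8% and the highest the DBA female at 65% (SD 8.30 points, with 20 to 96 reads). Inside the gene, 719 bases from the start site at chr11:22873934-22873948, the levels ran from 41.9% over a median of 47.9% to 52.2% (SD 3.54 points, with 129 to 302 reads). The wider spread lay at the region with fewer reads.

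The Gnas cluster carries methylation on different parental chromosomes at different start sites. Its 3 members lay 11 bases from the start of the antisense transcript Nespas, at chr2:174110925-174110948, and read 44.2% in the BXD male, 55.9% at the median and 60.8% in the BXD female. Of the 10 tested CGs near Nespas all had means in the window, and 3 were members.

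Cdh15, a cadherin gene with a maternally methylated region inside its body, had 3 members at chr8:125389217-125389258. The DBA female was lowest at 43.4%, the median was 48.2% and the B6 male was highest at 56.1%. A further 2 tested CGs within this region left the window in 1 mouse each.

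Regions with 1 member each on the maternal list lay at Igf2r and Airn, Grb10, and Blcap and Nnat. Igf2r, the scavenging receptor of insulin-like growth factor 2, is silenced on the paternal copy by the transcript Airn, and the member at chr17:12934456-12934457 lay 192 bases from the Airn start, with 36.9%, 47.4% and 52.8% in the lowest, median and highest mouse. At Grb10, an adaptor that restrains insulin signalling, the member 521 bases from a start site (chr11:11925806-11925807) read 39.0%, 43.0% and 50%. Nnat, a proteolipid gene within Blcap, had a member 7 bases from its start at chr2:157385883-157385884, at 45.2%, 51.2% and 58.7%, and a further member lay 5223 bases from the Blcap start at chr2:157380520-157380521, at 45%, 55.7% and 64.7%.

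From the paternal list, H19, a noncoding RNA gene, had a member 3087 bases from its start site at chr7:149767135-149767136, outside the gene, where the mice read 48.1%, 53.2% and 59.0% at the lowest, median and highest. A member inside the gene at chr7:149761722-149761723 read 38.8% in the DBA male, 53.2% at the median and 58.8% in the BXD male. Upstream of Zdbf2, whose paternal copy is methylated, 3 members at chr1:63312890-63312915 lay 6949 bases from the start site and read 36.2% in the B6 male, 49.0% at the median and 57.9% in the DXB male.

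**Figure D3:**
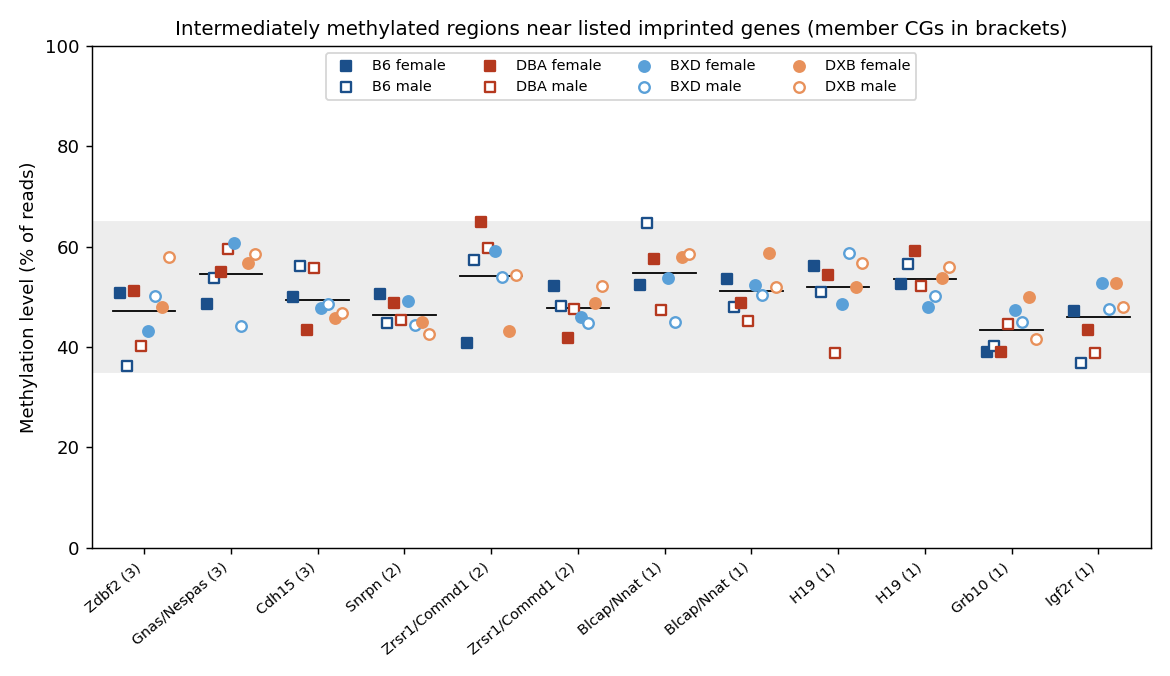
Each point is the methylation level (y axis, percent of reads) of a mouse over the members of a region near a listed imprinted gene (x axis, number of members in brackets), with the window of 35 to 65% in grey and the mean of the 8 mice as a line. Squares are parents, circles F1 mice, filled points females and open points males. Snrpn is narrow, from 42.7% to 50.6%, and the upstream Zrsr1 region is wide, from 40.7% to 65%.

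Near the listed genes 45 further CGs had a mean between 35% and 65% without being members. Of these, 10 were outside the window in 1 mouse, 14 in 2, 13 in 3, 7 in 4 and 1 in 6. The mice outside were most often the DBA male (23 CGs), the DBA female (21) and the B6 male (19), and least often the DXB female (5). Impact, a maternally methylated gene, shows how the rule misses such CGs. All 4 of its tested CGs had means in the window and none was a member, and at chr18:13131836 the mice ran from 18.2% in the DBA female to 73.9% in the BXD female with as few as 22 reads. At H13, 2 of 6 tested CGs had a mean in the window and neither was a member.

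Other listed imprinted genes had tested CGs far from the middle. The 5 CGs at Peg10 averaged 93.3% and the 11 at Kcnq1 74.1%, while the 5 CGs at Kcnk9 averaged 4.05%. A listed gene therefore did not imply an intermediate CG among those the fragments covered.

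Outside the imprinted list, the regions with the most members lay at genes of varied function. Tnxb, encoding a tenascin of the extracellular matrix, had 4 members in a coding exon at chr17:34809519-34809674, and Clcf1, encoding a cytokine of the interleukin-6 family, had 4 inside the gene at chr19:4216428-4216467, which is 940 bases from the start site of another annotated gene, AC109138.1. Tnxb read 61.8% in the B6 female, 53.3% in the B6 male, 50.9% in the DBA female, 53.1% in the DBA male, 59.3% in the BXD female, 53.2% in the BXD male, 47.1% in the DXB female and 57.1% in the DXB male. At Clcf1 the corresponding levels were 49.5%, 56.2%, 55.2%, 45.6%, 59.5%, 48.8%, 47.7% and 46.0%. At Tnxb both B6 parents stood above both DBA parents, with the males nearly level, and at Clcf1 the strains overlapped. Sexes, and parents and F1 mice, overlapped at both.

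Regions with 3 members were found at Prdm16, a regulator of brown fat identity, in an intron (51.03% to 57.0%), at Gal3st1, a sulfotransferase of glycolipids, in a coding exon (42.9% to 56.9%), at Dnahc17, a dynein heavy chain (44.6% to 57.5%), and at the growth factor gene Fgf1 within Arhgap26 (40% to 59.8%). A further pair lay between genes, 21.1 kb from the start of Dspp (45.1% to 63.4%) and 25.99 kb from the start of a U1 small nuclear RNA gene on chromosome 8 (41.4% to 60.7%). Prdm16 had the narrowest spread of these, with an SD of 1.87 points over the 8 mice and 81 to 221 reads. The first regions with 2 members in genome order lay at Aff3, Gm8840, Asb18 and Gm13605, with means of 50.02% to 51.9%.

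**Figure D4:**
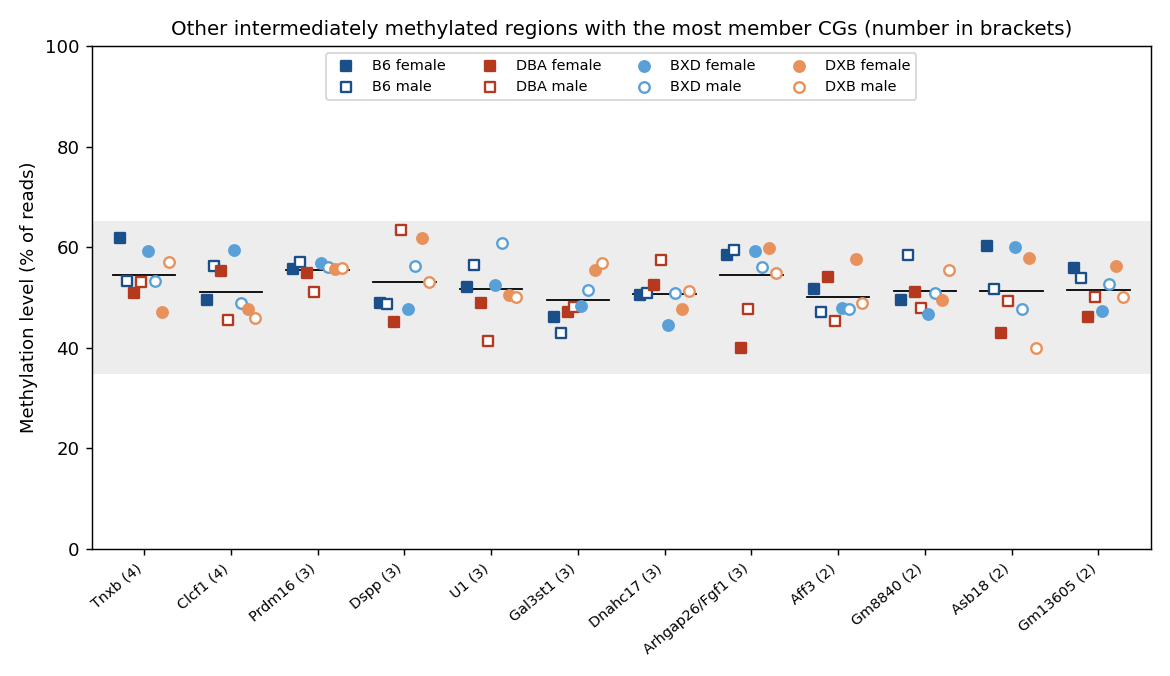
Levels (y axis, percent of reads) of the 8 mice are plotted for the named regions that are not near a listed imprinted gene, drawn as in the plot of imprinted regions, with squares for parents, circles for F1 mice, filled points for females and open points for males. The 8 points of Prdm16 lie between 51.03% and 57.0%, and at Arhgap26/Fgf1 the DBA female (40%) and the DBA male (47.6%) are the lowest mice. Members of that region had as few as 20 reads in a mouse. In F1 mice its summed sorted reads were 56.7% methylated on B6 and 58.0% on DBA chromosomes.

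Among other gene groups, to be read beside the 1.23% of all CGs tested that were members, none of the 255 CGs tested within 10 kb of the 39 measured Hox genes was a member. The clustered protocadherins, adhesion molecules whose promoters are chosen stochastically in neurons, had 5 members of 107 CGs, 1 at Pcdha11 and 4 along Pcdhgc5. The article names Met, Nsd1, Vps37b, Oprd1 and Mapk15 as putative imprinted genes, from regions of consecutive CpGs and traditional bisulfite sequencing. Of these 5 genes, 4 had a CG tested within 10 kb. Oprd1 had a member in an intron (mean 50.6%) and Mapk15 had a member 9.72 kb away (mean 50.1%), of 29 CGs tested near the group.

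The motif of ZFP57, TGCCGC, was searched on both strands of the reference (GCGGCA on the other strand) in the 200 bases around the middle of each region. It was present in 35 of 915 member regions (3.83%), in 3 of the 12 near listed imprinted genes (25%), and in 5.84% of the 27095 regions made in the same way from all CGs tested. A match is a description of the letters and no binding was measured.

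Reads sorted to a parental chromosome were available at 19 members, in 14 regions, with at least 5 sorted reads on each of the 8 chromosome sets of the F1 mice (17 to 179 reads, median 55). None of the 19 lay within 10 kb of a listed imprinted gene. At AC121784.5 on chromosome 12 the nearest coding start, 261876 bases away, was that of Rtl1, a gene of the paternal list. The sorted reads made up 96.9% to 100% of the reads of these members in an F1 mouse (median 99.6%), so the rule holds the average over both sets of a mouse, weighted by reads, near or within 35% to 65%, and it does not fix the difference between them.

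No difference between maternal and paternal chromosomes was called at any of the 19 members by limma. Adjustment was by Benjamini-Hochberg over all 12895 CGs tested (smallest adjusted p of a member 0.941). A call needed an adjusted p under 0.05 and a difference above 20 points. The unadjusted limma p was under 0.05 at 2 of the 19 members and at 555 of the 12895 CGs. Across all CGs 0.0233% were called, which is 3 CGs. The largest difference of a member was 14.1 points, at chr12:29937079 with the gene Myt1l as the nearest coding start at 276 kb, and the maternal level was higher at 8 of 19. Intervals (95%, from the limma fit) of the 19 differences lay between -26.3 and 33.0 points, and those of 2 members left out 0 before any adjustment. By region, the exact permutation test over 4 maternal and 4 paternal sets, two-sided, gave no p under 0.05 in 14 regions before adjustment. The smallest p it allows is 0.0286, and after adjustment over 14 regions a region that alone reached this p could not be called.

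The 3 CGs called by parent of origin all lay at Snrpn, just beyond its members, and show how an imprinted region reads in sorted reads. They had fewer than 20 reads in some mouse and were therefore not tested by the rule. The stretch chr7:67150053-67150135 of NCBIM37, plus strand, is printed with these CGs in capitals, and it holds TGCCGC, as does the stretch of Tnxb.
Snrpn: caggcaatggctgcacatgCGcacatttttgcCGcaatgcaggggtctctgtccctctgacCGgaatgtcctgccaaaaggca
Over the 3 CGs the maternal chromosome read 87.5% in the BXD female, 94.8% in the BXD male, 95.2% in the DXB female and 95.2% in the DXB male, and the paternal chromosome 6.67%, 2.58%, 6.06% and 0%. The mean was 93.2% ± 3.80 (SD, n = 4) on maternal and 3.83% ± 3.12 (SD, n = 4) on paternal chromosomes, and the groups did not overlap. At the CG at 67150086 the limma difference was 91.7 points (adjusted p = 0.00352 by limma). These calls rest on 7 to 52 reads in each set. All 3 were called by limma on the log2 ratio of the counts as well (adjusted p from 0.000562 to 0.00540), and the CG at 67150073 alone was with the DXB female left out. None was called with the mouse as a block, with a quasi-binomial model of the counts or with another F1 mouse left out, and with a minimum of 10 sorted reads these CGs are no longer tested. The differences themselves were 87.7 to 91.7 points in the block fit too and 81.5 to 95.3 points with a mouse left out.

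B6 and DBA chromosomes were compared by the other term of the same fit. Of all CGs 7.52% were called, and 1 of the 19 members was, a share on which the rule bears through the parents. At P4ha3, a subunit of a collagen prolyl hydroxylase, the second of its 2 members (chr7:107437658) read 73.4%, 69.4%, 83.6% and 71.2% on B6 chromosomes in the BXD female, BXD male, DXB female and DXB male, and 56.6%, 50.7%, 42.6% and 55.6% on DBA chromosomes. The groups did not overlap, the difference was 23.1 points with a standard error of 4.08, and the adjusted p was 0.0200 by limma. The other member, 23 bases away (chr7:107437635), differed by 10.3 points (limma adjusted p = 0.121), and its groups overlapped, with 43.7% to 59.3% on B6 and 36.2% to 51.3% on DBA chromosomes. For both members summed, the groups did not overlap and the exact permutation test gave p = 0.0286, the smallest it allows. That test shuffles all sets freely and ignores that the B6 and DBA sets of a mouse are a pair. At the second member, with the mouse as a block, for which the pairs of sets of 1 mouse deviated together, the adjusted p was 0.204 and the call was lost, as it was on the log2 ratio of the counts (limma adjusted p = 0.122) and without the BXD female (0.196, at 23.6 points) or the BXD male (0.194, at 22.6 points), with the difference about as large in each. The call was kept with at least 10 sorted reads (limma adjusted p = 0.0166), under the quasi-binomial model (0.0496) and without the DXB male (0.00771, at 29.5 points). Without the DXB female the difference was 16.7 points, under the size of a call. In whole reads of the parents the same CG read 61.5% and 60.9% in the B6 mice and 47.3% and 54.2% in the DBA mice, which the rule bounds.

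Below the 20 points of a call, AC121784.5 on chromosome 12 was lower on B6 chromosomes by 19.1 points (46.5% against 65.6%, adjusted p = 0.0315 by limma) and the middle CG at Fgf1 by 16.3 points (42.4% against 58.6%, adjusted p = 0.0237 by limma). Both adjusted p-values were also under 0.05 in limma with the mouse as a block (0.0164 and 0.0148) and with at least 10 sorted reads (0.0267 and 0.0199). Both were above 0.05 in limma on the log2 ratio of the counts (0.271 and 0.402), under a quasi-binomial model (0.106 and 0.255), and without the BXD male (0.234 and 0.181), the DXB female (0.208 and 0.215) or the DXB male (0.0551 and 0.109), while without the BXD female they were 0.142 and 0.0458. For AC121784.5 the exact permutation test, which ignores the pairing of sets within a mouse, gave p = 0.0286, the smallest it allows. AC121784.5 and P4ha3 were the only 2 of the 14 regions at that p, and after adjustment over the 14 regions the exact test gave 0.200 for both. The other 2 members of the Fgf1 region read 63.4% and 64.4% on B6 chromosomes and 58.4% and 57.0% on DBA chromosomes, and the summed region differed by 1.28 points. B6 chromosomes were higher at 13 of the 19 members, and the median size of the difference was 6.55 points. Over all CGs, 853 of the 970 called were higher on B6 chromosomes. The unadjusted limma p for strain was under 0.05 at 5 of the 19 members and at 2279 of the 12895 CGs.

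Sorted CGs that were not members but had a mean of 35% to 65% over the 8 chromosome sets are given beside them as a description. Of 1479 such CGs, 691 were called between B6 and DBA chromosomes and 614 differed by more than 50 points, while the median size of the difference was 23.6 points. A CG with a large strain difference in the parents as well would fail the rule, and the rule bears on this comparison in that way. The levels of these CGs in the parents were not compared here, and the 3 at Snrpn had too few reads for the rule. By parent of origin, 3 of the 1479 were called.

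**Figure D5:**
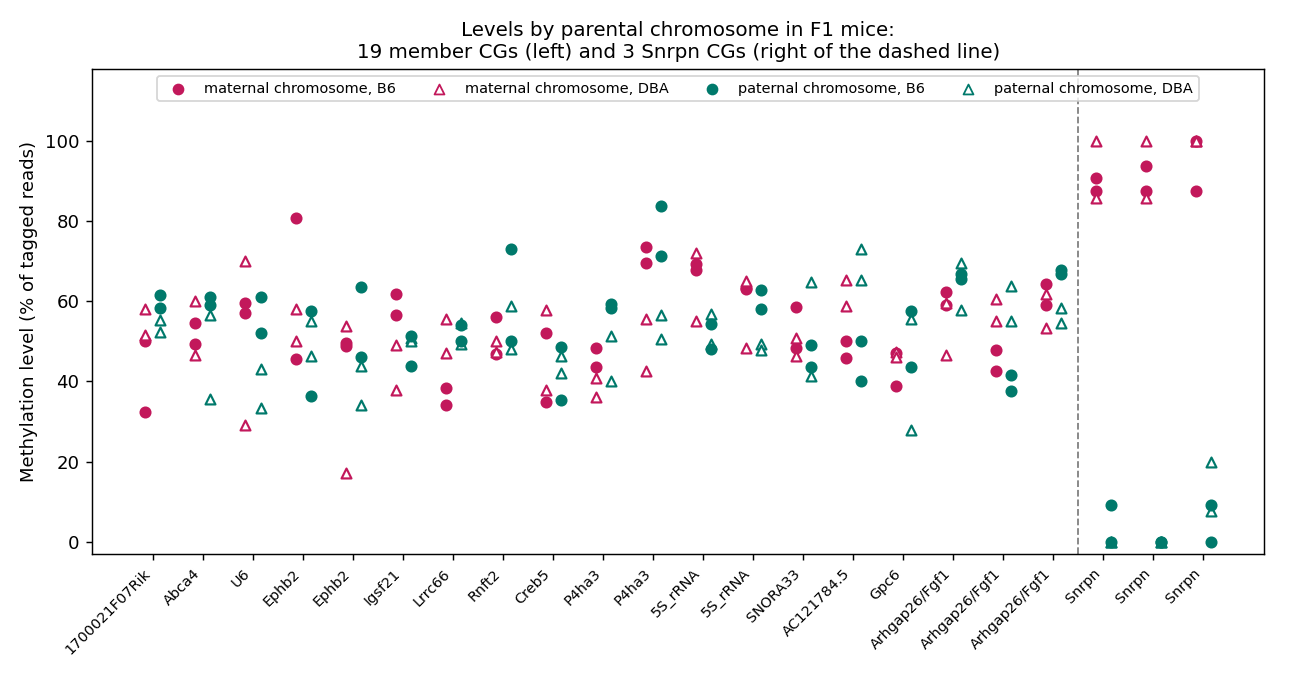
Levels (y axis, percent of sorted reads) on the maternal and paternal chromosomes of the 4 F1 mice are plotted for the 19 members with sorted reads and, right of the dashed line, for the 3 called Snrpn CGs. Filled circles are B6 and open triangles DBA chromosomes. At the members, whose average over both sets of a mouse the rule sets, the maternal and paternal means differ by at most 14.1 points. At Snrpn, whose 3 CGs the rule did not choose, the maternal points lie above 80% and the paternal points at or below 20%.

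The level at cytosines outside CG is often read as a measure of incomplete bisulfite conversion, which cannot be told apart here from methylation outside CG. Within 50 bases of members this level was 0.607% ± 0.223 (SD, n = 8 mice), against 0.615% near all CGs tested, a difference of -0.00804 points (exact sign-flip permutation test over mice, two-sided, p = 0.469). Near CGs below 20% it was 0.427%, lower than near members in 8 of 8 mice (p = 0.00781, exact, the smallest the test allows), and near CGs above 80% it was 0.770%, higher in 8 of 8 mice (p = 0.00781, exact). In single mice the level beside the members ran from 0.258% to 1.002%.

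Coverage is part of the rule through the minimum of 20 reads, and counting error is wider at few reads. It is given as a description, and its part in which CGs met the window was not tested. The median reads at members were 1.14 times those of all CGs tested, higher in 7 of 8 mice, while the mean reads were 0.870 times, higher in 1 of 8 mice.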

How the data were processed

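RRBS libraries from the livers of 8 mice were compared. The authors aligned reads to mm9 (submitters' processing notes) with BS Seeker, whose version is not given in the sources used here, and used SNPs to assign reads to a B6 or DBA chromosome. The authors deposited, for each mouse and class of reads, raw methylated and unmethylated read counts per cytosine, and the level as a fraction. The authors' 4 tables of comparisons hold differences, means and p-values, and were not used, with 12 columns of single-mouse values among them. Counts of all classes were added here and each strand of a CG was 1 site. PCR duplicates are not marked, so intervals cover counting error only. Genes come from GENCODE for NCBIM37, positions count from 1, and a gene is named by overlap or, failing that, by the nearest start site. The 15 regions with the most members (ties in genome order) and every region near a listed imprinted gene were named. The members, gene lists and tests were chosen with earlier results of these data known.

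Levels of sorted reads were fitted with limma 3.58.1 on parent of origin and strain of the chromosome, over CGs with at least 5 sorted reads in each set. There is 1 mouse of each strain and sex. The limma p-values rest on the spread among the 8 chromosome sets of the 4 F1 mice, which the fit takes as separate units. They do not measure the spread between mice of a kind. The 2 sets of a mouse deviated together after the fit (correlations of 0.335, 0.364, 0.248 and 0.205), and the fit with the mouse as a block is given where it changes a call. The exact tests of regions shuffle the sets freely and do not use this pairing. On simulated data with 200 changed CGs of 12895 between parental chromosomes, the fit called 0 at a difference of 20 points, 133 at 40 and 182 at 60. The simulated reads carried counting error only, without spread between mice, pairing of sets or strain differences. These counts therefore do not show how many such differences the fit would call in the mice. Alternatives covered the minimum of reads, the window, joined strands, the gap between regions, the distance to genes, the model and leaving out each mouse. Work was done in Python 3.11.15 and R 4.3.3. Reads, technical replicates and expression data were not analysed here. A few results at single genes are not reported here.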

Additional observations from a re-analysis of the deposited data

Results flagged for a closer look

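In 3 of 38 groups of 4 maternal or 4 paternal levels at the members with sorted reads, a mouse lay far from the other three by Dixon's ratio, and chance gives about 1 in 20 such groups. At Ephb2 (chr4:136394459) the maternal chromosome of the DXB female read 17.2% over 29 reads, against 48.9% to 53.8% in the other mice. In the DXB female the maternal level was also apart at chr12:29937081, where it was 48.3% over 29 reads against 63.0% to 65.1%. At Gpc6 (chr14:118344282) the maternal chromosome of the BXD male read 38.8% over 116 reads, against 46.2% to 47.5%.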

How the results depend on the processing

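The number of members depended on the rule's limits. It was 1629 of 173739 CGs tested with a minimum of 10 reads (0.938%) and 282 of 17899 with 50 reads (1.58%). Of the 82065 CGs tested at 20 reads it was 210 (0.256%) with a window of 40% to 60% and 2328 (2.84%) with 30% to 70%. With both strands added it was 1080 of 87632 (1.23%). Leaving out a mouse gave 1074 (1.31% of the CGs then tested, without the BXD male) to 3758 (1.63%, without the DBA male). The share of members near listed imprinted genes was 3.33% in the narrow window, and 1.01% to 2.14% without a mouse, the lowest without the DBA male, where 38 of 3758 lay near such genes. Without the B6 male the share was 2.04%. The other settings for this share gave 1.42% to 2.84%. The number of regions was 914 to 916 where only the gap that joins members was changed. Counting promoters to 2 kb gave 23.4% of members and 50.2% of all CGs tested. A 300-base window gave TGCCGC in 5.46% of member regions and 8.71% of the regions of all CGs tested. By mean in place of median reads, coverage reversed to 0.870 times. No member was called between parental chromosomes in any of the 8 alternatives. Of all CGs, 3 were called on the log2 ratio, 1 without the DXB female and 0 in each other alternative. These fits called little anywhere, so the lack of calls at members says little by itself. Between B6 and DBA chromosomes, 0 of 19 members were called with the mouse as a replicate block, where 780 of all 12895 CGs were. On the log2 ratio of methylated to unmethylated reads (prior of 0.5) 0 members and 978 of all CGs were called. Leaving out an F1 mouse gave 0 to 2 members, with 814 to 843 of all CGs called. The count was 0 without the BXD female (smallest adjusted p of a member 0.0458 by limma) and without the BXD male. Without the DXB female P4ha3 fell below 20 points and the call moved to a CG on chromosome 3 with Negr1 as the nearest coding start. The exact tests of regions allow no p below 0.0286. The thinnest set of a member held 17 sorted reads, and the part of depth in the lack of calls was not tested.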
